A study of Mus musculus with 4 samples.

Results

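The 10 genes described here encode the machinery that sets and reads the level of β-catenin: the tankyrases *Tnks* and *Tnks2*, the destruction complex genes *Apc*, *Axin1* and *Gsk3b*, β-catenin itself (*Ctnnb1*), and the DNA-binding partners *Tcf7*, *Tcf7l1*, *Tcf7l2* and *Lef1*. They were chosen by name, for what the proteins do, from 17419 genes listed in at least 1 of the 4 normalized tables, and all 10 were listed in every table. The tables hold single-cell transcriptomes of 4 neural stem cell (NSC) lines derived from epiblast stem cells (EpiSCs, pluripotent cells of the postimplantation epiblast) of 129/Sv mice and expanded in 10 ng/ml EGF and FGF2. XN4 and XN1 were both derived in 10 µM XAV939, a tankyrase inhibitor, bought from supplier B for XN4 and from supplier A, whose compound formed crystals in the medium, for XN1. CN4 was derived in 2 µM CHIR99021, a GSK3 inhibitor, and KN1 with neither compound. The authors' methods state that the EpiSCs were themselves cultured with activin A, FGF2 and 2 µM XAV939. All 4 lines thus started from cells kept in XAV939, also KN1 and CN4. XN1 and KN1 came from one derivation experiment and XN4 and CN4 from another, run by a different experimenter, so that every comparison other than XN1 with KN1 and XN4 with CN4 also crosses experiments, and the line, the experiment and the experimenter cannot be told apart in it. Each line was measured as 1 library on the BD Rhapsody microwell platform, so n = 1 for every value, the line and its library cannot be told apart, and no test between lines was possible.

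Without a Wnt ligand, Axin and Apc hold β-catenin for phosphorylation by GSK3, and the phosphorylated protein is degraded. Tankyrases attach poly(ADP-ribose) chains to Axin and so mark it for degradation. An inhibitor of tankyrase such as XAV939 thus keeps Axin and lowers β-catenin, while an inhibitor of GSK3 such as CHIR99021 spares β-catenin, which then enters the nucleus and joins TCF/LEF proteins at their target genes. These steps act on proteins, and the values below are those of the mRNAs.

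Levels are given as reads per 1000000 reads (rpm) of the normalized tables, summed over 3448 to 3975 cells and 19271688 to 41539513 reads per line, with a 95% counting interval where it matters. Reads were not collapsed to molecules, so all intervals cover counting error only and are too narrow where 1 molecule gave several reads. The KN1 library stood apart from the others in its genes per cell, with a median of 833 genes at 5862 reads against 2257 to 2824 genes in the other lines. A cell with a given member held 1.82 to 9.22 reads of it in KN1, 1.42 to 10.2 in XN4, 1.27 to 7.62 in CN4 and 1.23 to 4.37 in XN1. Gene by gene, KN1 held the most for every member but *Ctnnb1*. It held 6.21 reads of *Tnks* against 1.49 to 2.93 in the others, and 5.42 of *Axin1* against 1.23 to 2.29. For *Ctnnb1* it held 7.60, against 10.2 in XN4, 7.62 in CN4 and 4.37 in XN1. *Malat1*, a nuclear RNA chosen here after its values were seen, stood at 32026 rpm in KN1 and at 3280 to 14187 rpm in the others, and ratios to KN1 went down with the length of a gene: over 10 groups of genes ordered by span, the median log2 ratio ran from 0.58 in the shortest to -1.497 in the longest for XN4, from 0.69 to -1.87 for XN1 and from 0.66 to -1.75 for CN4. XN4 lacked several defining markers of its label: *Sox2*, an NSC transcription factor, was captured in 0.561% of its cells, against 13.9% to 85.9% in the others, and 4 of the 12 NSC markers, *Sox1*, *Sox3*, *Hes5* and *Fabp7*, were not listed in its normalized table, of which *Sox1* was not listed in XN1 either. The 12 NSC markers summed to 1868 rpm in XN4 and to 5045 to 11033 rpm in the others. The intermediate filament gene *Nes* was at 25.4 rpm in XN4 and 372 to 655 rpm in the others, *Slc1a3* at 63.9 and 922 to 2724 rpm, and *Pax6* at 0.409 and 44.8 to 45.9 rpm, while *Vim*, at 1325 rpm, and *Zeb2*, at 247 rpm, lay within the range of the others (487 to 2265 and 107 to 292 rpm). The 10 mesenchymal markers summed to 8388 rpm in XN4, with *Col3a1*, a fibrillar collagen, in 97.7% of cells, and to 459 to 969 rpm in the other lines, where *Fbln2*, an extracellular matrix protein at 17.0 rpm in XN4, made up 263 to 870 rpm. The near absence of *Sox2* and the level of the mesenchymal markers go against the NSC label of the library labelled XN4, while *Vim* and *Zeb2* do not, and *Sox1*, *Sox3* and *Pax6*, which are not used in every region of the neural tube alike, were read neither way. Other assays of this line were not used here, and XN4 below means the library labelled XN4. Comparisons among XN1, KN1 and CN4 do not use it. The part of these features in the differences between lines was not tested. From 14 to 21 cell labels were shared by any 2 normalized tables.

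The widest ranges belonged to *Lef1* and *Tcf7*, the factors best known as partners of β-catenin in gene activation, and both were highest in XN1. *Lef1* stood at 13.8 rpm in XN1 (12.1 to 15.5), at 1.48 rpm in CN4, at 1.45 rpm in KN1 and at 0.819 rpm in XN4. The level in XN1 was thus 9.28-fold that in CN4 (6.48 to 13.7), 9.48-fold that in KN1 (6.78 to 13.6) and 16.8-fold that in XN4 (11.7 to 24.8). The other 3 lines had intervals that overlapped between neighbors in this order. Even so, the ratio of XN4 was 0.564 to KN1 (0.346 to 0.914) and 0.552 to CN4 (0.333 to 0.916). These intervals are too narrow, since 1 KN1 cell held 15 of the 40 reads of that line and 1 XN4 cell 9 of 34. Among cells of the normalized tables, *Lef1* was in 0.611% of XN4, 0.553% of KN1 and 0.638% of CN4 cells. By cells XN4 thus lay above KN1, and no direction is given for *Lef1* between XN4 and KN1. Without dividing cells, those with a read of *Mki67* or *Top2a*, the log2 ratio of XN1 was 1.59 over CN4 instead of 3.21 and 2.51 over KN1 instead of 3.24, and *Lef1* in CN4 was at 3.54 rpm in the cells left and 0.809 rpm in dividing ones, over 22 cells in all. *Tcf7* stood at 25.3 rpm in XN1 (23.1 to 27.6), at 6.36 rpm in CN4, at 5.26 rpm in KN1 and at 1.90 rpm in XN4. XN1 again lay above all others, 3.97-fold over CN4 (3.29 to 4.81), 4.80-fold over KN1 (3.98 to 5.82) and 13.3-fold over XN4 (10.5 to 17.1), and CN4 and KN1 had overlapping intervals.

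Both genes were rare at the level of cells. At least 1 read of *Tcf7* was found in 9.59% of 14452 XN1 cells (9.12% to 10.1%, exact Clopper-Pearson interval), 4.51% of 18157 CN4 cells, 1.19% of 8741 XN4 cells and 0.780% of 3975 KN1 cells, so that XN4 was the lowest line by reads and KN1 by cells. *Lef1* was found in 5.42% of XN1 cells (5.05% to 5.80%), 0.898% of CN4 cells, 0.561% of XN4 cells and 0.553% of KN1 cells. *Col3a1*, abundant only in XN4 among these lines, was found in 0.228% to 1.23% of XN1, CN4 and KN1 cells. The *Lef1* shares outside XN1 and the *Tcf7* shares in XN4 and KN1 lay within that range. It does not measure the background of rarer genes, since *Col3a1* stood at 5474 rpm in XN4 and at 24.1 rpm in CN4. Whether shares of this size are background was not tested, and the folds over those lines rest on values at that level. After every cell was thinned to 3000 reads in the normalized tables, the share for *Lef1* was 3.54% in XN1 and 0.241% to 0.360% in the others, and the share for *Tcf7* was 6.22% in XN1 and 0.393% to 1.70% in the others.

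Windows at annotated start sites of these 2 genes are shown because their levels were the most uneven among the members and both were highest in XN1. The RefSeq windows of 300 bases, 250 before and 50 after a start site, on GRCm38.p6, were searched on both strands for TCF/LEF words, CTTTGNN with A or T at each N, which 16.9% of all 32851 windows hold. Of 13 windows found for 7 of the 10 members, 2 held a word: CTTTGTT 14 bases before a *Tcf7l2* start site 154 kb downstream of the first, and TACAAAG, on the reverse strand, 147 bases before a *Lef1* start site 46.0 kb downstream of the first. The first window of *Tcf7* (chr11:52282965-52283264, minus strand), the first of *Lef1* (chr3:131110047-131110346, plus strand) and the downstream one of *Lef1* (chr3:131156044-131156343, plus strand) read as follows, with the word in capitals.
Tcf7, first window: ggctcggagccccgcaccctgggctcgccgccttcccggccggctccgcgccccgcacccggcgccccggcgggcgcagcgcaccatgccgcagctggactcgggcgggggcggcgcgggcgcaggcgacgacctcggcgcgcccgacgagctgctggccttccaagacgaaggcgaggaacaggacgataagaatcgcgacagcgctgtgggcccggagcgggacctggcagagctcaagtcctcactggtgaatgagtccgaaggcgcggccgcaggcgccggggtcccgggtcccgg
Lef1, first window: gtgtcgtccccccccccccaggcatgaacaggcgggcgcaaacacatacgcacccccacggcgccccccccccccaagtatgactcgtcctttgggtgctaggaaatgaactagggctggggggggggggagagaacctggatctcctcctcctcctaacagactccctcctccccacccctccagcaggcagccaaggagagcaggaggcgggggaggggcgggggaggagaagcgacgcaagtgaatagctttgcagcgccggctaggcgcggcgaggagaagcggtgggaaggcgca
Lef1, downstream window: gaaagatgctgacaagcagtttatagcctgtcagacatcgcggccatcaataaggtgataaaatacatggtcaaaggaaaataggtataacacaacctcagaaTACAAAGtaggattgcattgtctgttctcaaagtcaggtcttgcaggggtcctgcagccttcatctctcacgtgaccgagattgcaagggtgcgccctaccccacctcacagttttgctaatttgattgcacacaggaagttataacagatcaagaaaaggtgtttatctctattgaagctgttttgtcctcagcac
Neither first window held a word, and the GC content was 76.3% for *Tcf7* and 67.3% for *Lef1* against 43.7% in the downstream *Lef1* window. From its first atg, the *Tcf7* window reads to its end without a stop codon in that frame, so it may hold coding sequence. Whether any of these windows acts as a promoter was not tested. A match is a description of the sequence and was not tied to the reads.

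**Figure D1:**
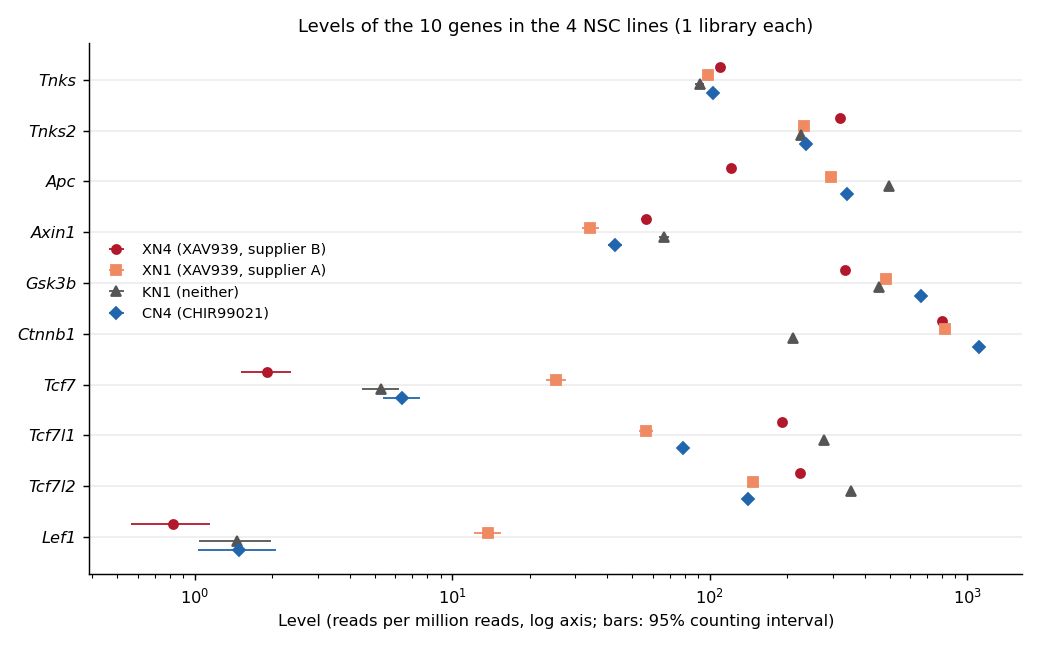
Level of each of the 10 genes in each line, in rpm on a log axis; points are the 4 lines (1 library each) and bars are 95% counting intervals. *Tcf7* and *Lef1* were highest in XN1 at 25.3 and 13.8 rpm, *Ctnnb1* stood apart in KN1 at 210 rpm, and *Tnks* lay between 91.5 and 109 rpm in all lines.

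The other factors, *Tcf7l1*, best known as a repressor of Wnt targets in pluripotent cells, and *Tcf7l2*, were not highest in XN1. *Tcf7l1* was at 278 rpm in KN1, 191 rpm in XN4, 78.4 rpm in CN4 and 56.7 rpm in XN1, and no neighboring intervals overlapped. XN4 was 3.37-fold over XN1 (3.16 to 3.59) and 2.43-fold over CN4 (2.31 to 2.56), so the lines derived in XAV939 lay far apart for this gene too, in the direction opposite to *Tcf7* and *Lef1*. *Tcf7l1* was captured in 57.8% of XN4 cells, 35.3% of CN4 cells, 24.8% of KN1 cells and 20.3% of XN1 cells, and after thinning in 35.9%, 18.9%, 21.7% and 14.0%. By reads KN1 was the highest line and by cells XN4 was. A KN1 cell with the gene held 7.77 reads of it, against 3.56 in XN4. The total that levels are divided by was also smaller in KN1, at 27563145 reads in 3975 cells against 41539513 reads in 3927 cells of XN4.

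*Tcf7l2* was at 354 rpm in KN1, 224 rpm in XN4, 147 rpm in XN1 and 141 rpm in CN4, and the last 2 had overlapping intervals. By cells it was captured in 59.1% of XN4, 49.4% of CN4, 42.3% of XN1 and 30.5% of KN1 cells. The log2 ratios of XN1 and CN4 to KN1, -1.27 and -1.32 by reads, were 0.46 and 0.66 by shares of cells, 0.24 and 0.19 by shares after thinning, and 0.59 and 0.42 once divided by the median ratio of genes of like span, so no direction is given for *Tcf7l2* against KN1. The gene spans 192 kb, the longest of the 10.

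Within each line, the reads of the 4 factors were summed and the share of each was taken, without correction for length, so shares are compared only between lines. Against KN1 a trend with gene span remains. The median log2 ratio of XN1 over KN1 was 0.35 for genes of the span of *Tcf7*, -0.73 for that of *Tcf7l1* and -1.87 for that of *Tcf7l2*. The shares of KN1 were not corrected for it. *Tcf7l1* held 45.7% in XN4, 43.5% in KN1, 34.4% in CN4 and 23.4% in XN1. *Tcf7l2* held 53.6% in XN4, 55.5% in KN1, 62.1% in CN4 and 60.5% in XN1. *Tcf7* took 10.4% of TCF/LEF reads in XN1 (9.56% to 11.3%), 2.79% in CN4, 0.824% in KN1 and 0.455% in XN4, and *Lef1* 5.67% in XN1 (5.03% to 6.37%) and 0.196% to 0.651% elsewhere. This share does not depend on the total of the table. At the level of cells, 21.5% of XN4, 32.5% of CN4, 41.3% of XN1 and 53.5% of KN1 cells had no read of any of the 4.

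**Figure D2:**
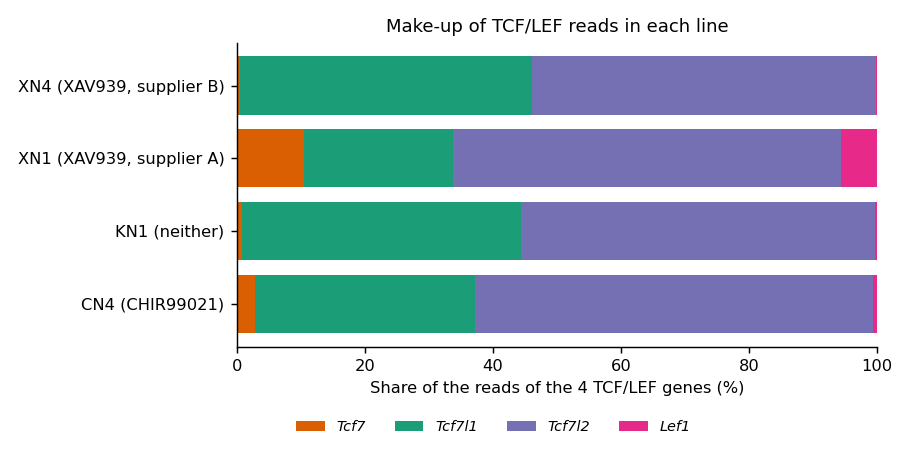
Share of the summed reads of *Tcf7*, *Tcf7l1*, *Tcf7l2* and *Lef1* that each gene took in each line, in percent, from the normalized tables; each bar is 1 library. *Tcf7* and *Lef1* took 10.4% and 5.67% in XN1, and *Tcf7l1* took 45.7% in XN4 and 23.4% in XN1. The bar of KN1 is not corrected for the trend of ratios to KN1 with gene span.

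β-Catenin mRNA separated KN1 from the rest. *Ctnnb1* (chr9:120929216-120960507) was at 1109 rpm in CN4, 823 rpm in XN1, 801 rpm in XN4 and 210 rpm in KN1, and no neighboring intervals overlapped. CN4 was 5.28-fold over KN1 (5.13 to 5.43), XN1 3.92-fold (3.80 to 4.04) and XN4 3.81-fold (3.71 to 3.92), whereas CN4 was 1.35-fold over XN1 (1.32 to 1.37) and 1.38-fold over XN4 (1.36 to 1.41). The gene was captured in 97.6% of CN4, 92.8% of XN1, 82.9% of XN4 and 19.1% of KN1 cells, and after thinning in 93.6%, 88.0%, 76.7% and 16.7%, so reads and cells gave the same order. Genes of like span had a median log2 ratio to KN1 of 0.32 in XN4, 0.35 in XN1 and 0.44 in CN4, against 1.93, 1.97 and 2.40 for *Ctnnb1*. The loci of 4930593C16Rik and *Ulk4* overlap *Ctnnb1* on the other strand.

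Among the 3 destruction complex members *Apc*, *Axin1* and *Gsk3b*, *Apc* differed most by reads. *Apc* (chromosome 18, spanning 101.6 kb) was at 495 rpm in KN1, 343 rpm in CN4, 297 rpm in XN1 and 121 rpm in XN4, with no overlapping neighbors, so it was lowest in XN4 by 2.44-fold against XN1 (2.35 to 2.54) and 2.82-fold against CN4 (2.72 to 2.92). By cells it was captured in 79.5% of CN4, 65.3% of XN1, 40.4% of XN4 and 37.2% of KN1. After thinning the share was 57.8% in CN4, 52.8% in XN1, 34.8% in KN1 and 23.2% in XN4, and XN4 was again the lowest. By unthinned shares the log2 ratio of XN4 to KN1 was 0.12 instead of -2.03 by reads. Relative to genes of like span, the log2 ratio to KN1 was -0.013 in XN1 and 0.11 in CN4, instead of -0.74 and -0.53 by reads, and -1.52 in XN4.

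*Gsk3b*, the kinase that CHIR99021 inhibits, was highest in CN4 at 660 rpm (650 to 671), followed by XN1 at 485 rpm, KN1 at 455 rpm and XN4 at 336 rpm. CN4 was 1.96-fold over XN4 (1.92 to 2.01), 1.45-fold over KN1 (1.42 to 1.48) and 1.36-fold over XN1 (1.33 to 1.40). The log2 ratio of CN4 over KN1, 0.54 by reads, was 1.28 by shares of cells, 1.25 by thinned shares and 1.18 relative to genes of like span, which is past 2-fold. It was captured in 93.3% of CN4, 81.4% of XN1, 71.5% of XN4 and 38.0% of KN1 cells, so KN1 was above XN4 by reads and below it by cells. *Axin1*, the scaffold that tankyrase modifies, was at 66.3 rpm in KN1, 56.3 rpm in XN4, 42.8 rpm in CN4 and 34.4 rpm in XN1. Its highest and lowest lines were 1.93-fold apart, and it was captured in 27.1% of XN4, 23.9% of CN4, 14.4% of XN1 and 8.48% of KN1 cells, with KN1 the highest line by reads and the lowest by cells.

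By pooled reads the tankyrases themselves were the most even members. *Tnks* (chr8:34826460-34965690) was at 109 rpm in XN4, 103 rpm in CN4, 98.7 rpm in XN1 and 91.5 rpm in KN1, a range of 1.19-fold in which every neighboring pair had overlapping intervals. The intervals of the ratio of XN4 to CN4 (1.004 to 1.11) and of XN1 to KN1 (1.016 to 1.145) still lay above 1. *Tnks2* (chr19:36834232-36893477) was at 320 rpm in XN4 (315 to 326), 237 rpm in CN4, 233 rpm in XN1 and 226 rpm in KN1, so XN4 stood 1.35- to 1.42-fold above the other lines and these did not differ beyond their intervals between neighbors. Thinned shares of *Tnks* were 22.0% in XN4, 23.1% in XN1 and 24.1% in CN4, and those of *Tnks2* were 52.8%, 46.1% and 46.3%. In KN1 they were 8.72% and 21.3%, at read levels close to those of the other lines. The log2 ratio of *Tnks* over KN1 was 0.25 in XN4, 0.11 in XN1 and 0.18 in CN4 by pooled reads. By a mean over cells it was 0.38, 0.25 and 0.26. Relative to genes of like span it was 0.76, 0.84 and 0.82, without dividing cells 0.71, 0.53 and 0.57, and by shares of cells 1.95, 1.68 and 1.96. The evenness of *Tnks* with KN1 thus depended on the setting. XN4 and XN1, both derived with the tankyrase inhibitor, differed by 1.11-fold for *Tnks* (1.05 to 1.17) and 1.37-fold for *Tnks2* (1.33 to 1.42). For *Tnks* this direction was not kept in every setting: the log2 ratio of XN4 over XN1 was 0.145 by pooled reads, -0.088 in the tables of all reads and -0.135 relative to genes of like span. The totals of all reads include ribosomal protein and mitochondrial reads, the latter 22.6% in XN4 and 15.1% in XN1, which the normalized tables leave out. In the cells outside the normalized tables, counted on the same genes, the log2 ratio was 0.032 (ratio interval 0.985 to 1.06).

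**Figure D3:**
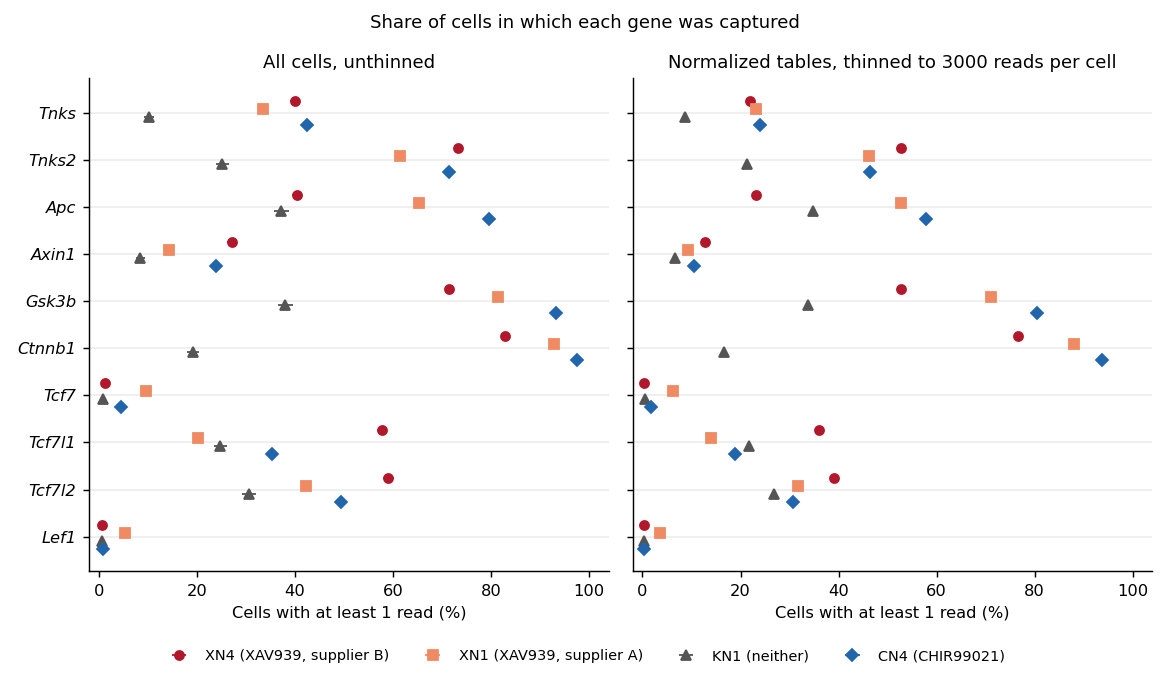
Share of cells with at least 1 read of each gene, in percent; on the left all cells (the full read tables where deposited, and the normalized table for KN1) with exact 95% intervals, on the right the expected share after thinning cells of the normalized tables to 3000 reads. *Ctnnb1* was captured in 97.6% of CN4 and 19.1% of KN1 cells. *Tnks* was captured in 39.95% of XN4 and 33.49% of XN1 cells on the left and in 22.0% and 23.1% on the right, so the order turned. The set of cells also differs between left and right.

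A ratio of at least 2 in either direction was taken as a difference between 2 lines, and the members were read against the share of all genes that passed it. Between XN1 and CN4, 2 of 10 members passed, *Tcf7* and *Lef1*, both higher in XN1, against 18.0% of all genes. Between XN4 and XN1, 4 of 10 passed, against 31.0% of all genes, with *Tcf7l1* higher in XN4 and *Lef1*, *Tcf7* and *Apc* higher in XN1. Between XN4 and CN4, 3 passed, against 32.5%, with *Tcf7l1* higher in XN4 and *Tcf7* and *Apc* higher in CN4. The call of *Tcf7l1* over CN4, a log2 ratio of 1.28 by reads, was lost by shares of cells (0.84), by thinned shares (0.93) and relative to genes of like span (0.98), and by shares of cells *Apc* in XN4 also fell short of 2-fold, at -0.93 against CN4 and -0.68 against XN1. Against KN1, 3 members passed in XN4 (46.0% of all genes), 5 in XN1 (47.3%) and 3 in CN4 (43.8%). Only 8 members had a mean of at least 20 rpm in a pair of lines; of these, 0 passed between XN1 and CN4 (12.1% of all genes of that level), 2 between XN4 and XN1 (26.0%) and 3 between XN1 and KN1 (46.0%). The median log2 ratio of the members was 0.05 for XN4 over XN1, -0.20 for XN4 over CN4 and -0.14 for XN1 over CN4, beside 0.09, 0.04 and -0.08 over all genes. Over the 8 members of at least 20 rpm it was 0.30, 0.24 and -0.26, beside 0.06, -0.03 and -0.11, so its sign for XN4 over CN4 depended on the filter.

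**Figure D4:**
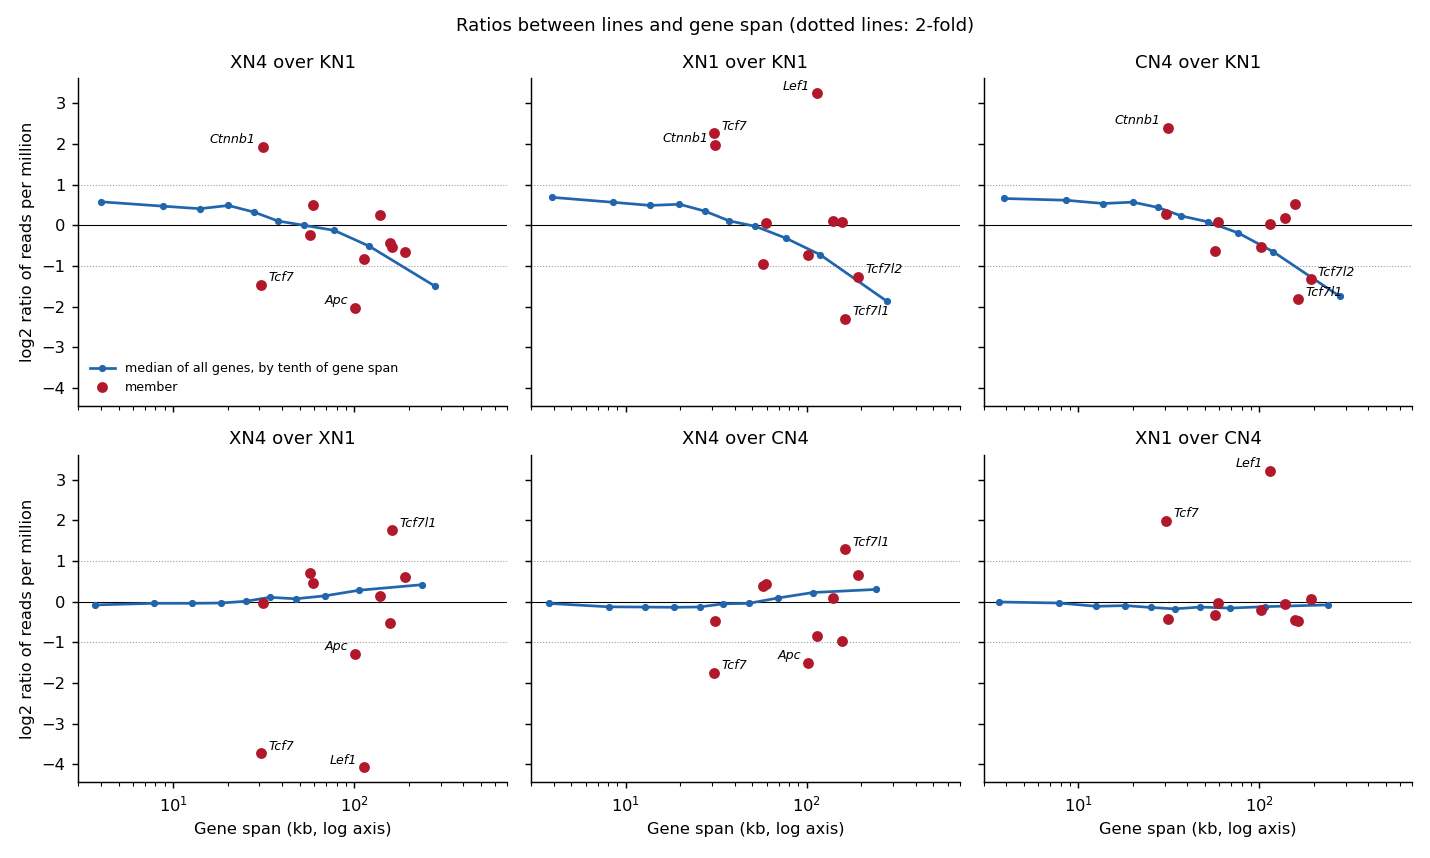
Log2 ratio of the rpm of each member (red, named where at least 2-fold) against the span of its gene in kb on a log axis, for the 6 pairs of lines, with the median of all genes in each of 10 groups of gene span in blue. The blue line goes down with span in the 3 panels against KN1, from 0.58 to -1.497 for XN4, and *Ctnnb1* lies above it in all 3.

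The cells of the 3 libraries with a table of all reads that were not in the normalized tables, 4814 in XN4, 10547 in XN1 and 14709 in CN4, gave a second look at the levels within the same libraries, chosen after the data were seen. In them, *Lef1* was at 13.8 rpm in XN1, 1.81 rpm in CN4 and 0.659 rpm in XN4, and *Tcf7* at 25.0, 8.01 and 2.34 rpm. *Tcf7l1* was at 190, 55.9 and 80.3 rpm in XN4, XN1 and CN4, and *Apc* at 119, 294 and 325 rpm. Both sets of cells came from 1 library per line, so this shows how far the choice of cells mattered and not how lines vary.

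Cells with a read of *Mki67* or *Top2a*, genes of dividing cells, made up 37.5% of XN4, 38.0% of XN1, 48.3% of KN1 and 70.8% of CN4 cells. They were deeper than the other cells, so the number with a member was compared with that expected from 20 strata of cells of like total reads. For *Tnks*, *Tnks2*, *Apc*, *Gsk3b* and *Ctnnb1* the observed number was 0.956 to 1.03 times the expected in every line, and for *Axin1* and *Tcf7l2* 0.968 to 1.06 times. This ratio has little room to rise for a gene captured in most cells: in CN4, *Ctnnb1* was expected in 2383 of 2440 dividing cells. By reads, the rpm ratio of dividing over other cells ran from 0.843 (XN4) to 1.45 (KN1) for *Tnks* and 0.817 to 0.980 for *Tnks2*. It ran from 0.868 to 0.917 for *Apc*, 0.914 to 1.06 for *Gsk3b* and 0.962 to 1.09 for *Ctnnb1*. For *Axin1* and *Tcf7l2* it ran from 0.991 to 1.36 and 0.821 to 1.04. In XN1, *Lef1* was found in 7.34% of dividing and 4.13% of other cells, 109 cells against 83.5 expected, *Tcf7* in 12.0% and 7.69%, 178 against 157, and *Tcf7l1* in 23.4% and 17.6%, 348 against 314. In the XN1 cells outside the normalized table, 284 dividing cells held *Lef1* against 253 expected, 509 held *Tcf7* against 463 and 1037 held *Tcf7l1* against 942, smaller excesses in proportion for all 3. *Tcf7l1* was above the expected number in the other lines too, with 586 dividing cells against 553 in KN1 and ratios of 1.01 in XN4 and 1.02 in CN4. Outside the normalized table its ratios were 1.02 in XN4 and 1.01 in CN4. For XN4 cells with reads of both *Mki67* and *Top2a* it was at 0.983. In KN1, *Tcf7* was in 21 dividing cells against 18.3 expected, too few to be read. *Lef1* in the dividing cells of XN4, CN4 and KN1 rested on 7, 10 and 15 cells, and its ratios of 0.671, 0.621 and 1.39 were not read. In CN4 and XN4, *Lef1* reached 0.955 and 0.918 in the cells outside the normalized table.

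**Figure D5:**
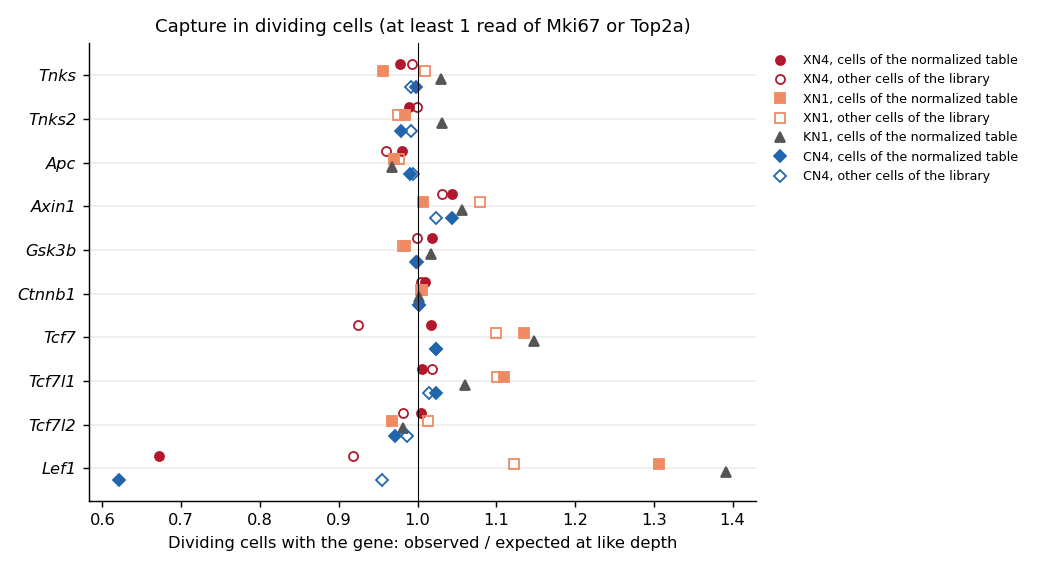
Number of dividing cells with each gene over the number expected at like depth, with filled symbols for cells of the normalized tables and open symbols for the other cells of the same library. *Ctnnb1* lay between 1.00 and 1.01 in all lines, where a gene captured in most cells has little room to rise. *Lef1* and *Tcf7* lay above 1 in XN1 in both sets of cells. *Axin1* and *Tcf7l1* lay above 1 in every line and set shown. *Axin1* was at 0.984 in XN1 with strata of genes detected. For cells with reads of both *Mki67* and *Top2a*, *Axin1* was at 0.959 in KN1 and *Tcf7l1* at 0.983 in XN4.

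Pairs of members were captured in the same cell about as often as cells of like depth would give. Over the 31 to 45 pairs per line with at least 10 expected cells, the median ratio of observed to expected was between 1.00 and 1.01, and 4 pairs exceeded 1.2, each with 30 or fewer cells. *Tcf7* and *Lef1*, both highest in XN1, met in 20 XN1 cells against 20.8 expected, and in 53 against 66.7 in the cells outside the normalized table. *Tcf7l1* and *Lef1* met in 48 cells against 43.7, and in 167 against 135 in the other cells. Cells were not replicates of a line, and these ratios are descriptions.

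Partners of these proteins were taken from 3 lists, of which the first 2 share *Axin2* and the first and the third share *Parp1*. Of 12 tankyrase partners, 4 were at least 2-fold higher in XN4 than in XN1 and 1 was lower, while of 26 destruction complex partners listed in both lines 2 were higher and 3 lower, and of 31 β-catenin and TCF cofactors 4 were higher and 3 lower. Of all genes, 16.7% were at least 2-fold higher and 14.3% lower in XN4. The medians of the log2 ratio were 0.30, -0.10 and 0.10, beside 0.09 over all genes. Between XN1 and CN4 the counts were 1 higher and 2 lower, 1 higher and 2 lower, and 2 higher and 1 lower in XN1, against 9.93% and 8.02% of all genes. *Axin2*, a second Axin and a direct target of β-catenin and TCF, spanned the widest range of the first 2 lists: it was at 94.9 rpm in CN4, 20.9 rpm in XN1, 17.1 rpm in KN1 and 3.01 rpm in XN4, and was captured in 38.8% of CN4, 8.02% of XN1, 2.01% of KN1 and 1.499% of XN4 cells. CN4 thus led for *Axin2* and *Gsk3b*, while XN1 led for *Tcf7* and *Lef1*.

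Of the other tankyrase partners with wide ranges, *Amotl2* and *Tnks1bp1* were highest in XN4. *Amotl2*, an angiomotin that tankyrase marks, was at 223 rpm in XN4 and 18.9 to 48.5 rpm elsewhere, and *Tnks1bp1*, a tankyrase-binding protein, at 207 rpm and 28.4 to 48.7 rpm. *Amotl1* was at 387 rpm in XN4, 443 rpm in XN1, 164 rpm in KN1 and 174 rpm in CN4. *Terf1*, a telomere protein that tankyrase releases, was highest in KN1 by reads, at 68.2 rpm against 19.9 to 43.7 rpm, but was captured in 7.87% of KN1 and 7.92% of XN1 cells against 20.4% of XN4 and 16.1% of CN4 cells.

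In the destruction complex list, the ubiquitin ligase subunit *Btrc*, which recognizes phosphorylated β-catenin, was at 152 rpm in KN1, 103 rpm in XN4, 45.7 rpm in CN4 and 35.9 rpm in XN1. *Amer1*, which recruits Apc to the membrane, was at 56.1 rpm in KN1, 25.2 rpm in CN4, 24.7 rpm in XN4 and 11.1 rpm in XN1. *Skp1a*, the adaptor of the same ligase, the helicase *Ddx3x* and the Dishevelled gene *Dvl3* were lowest in KN1, at 149, 120 and 66.8 rpm against 412 to 497, 301 to 548 and 100.3 to 163 rpm.

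Among the cofactors, N-cadherin (*Cdh2*), which holds β-catenin at the membrane, was at 614 rpm in KN1, 444 rpm in CN4, 255 rpm in XN1 and 19.1 rpm in XN4, and was captured in 85.3% of CN4, 61.8% of XN1, 43.0% of KN1 and 8.92% of XN4 cells. *Tnik*, a kinase that binds TCF proteins, was at 617 rpm in KN1, 159 rpm in XN1, 62.1 rpm in CN4 and 39.0 rpm in XN4, and plakoglobin (*Jup*) was at 5.66 rpm in KN1 and 50.6 to 63.9 rpm in the others. The Groucho corepressor genes differed in which line was highest: *Tle4* was at 217 rpm in KN1, 169 rpm in XN1, 70.6 rpm in CN4 and 33.5 rpm in XN4, while *Tle1* and *Tle2* were highest in XN4 at 84.3 and 68.3 rpm. *Tle1* was lowest in KN1 at 18.6 rpm and *Tle2* in CN4 at 11.8 rpm. By share of cells KN1 did not lead for the genes in which it led by reads here: *Tle4* was captured in 45.7% of XN1, 31.4% of CN4, 22.9% of KN1 and 16.4% of XN4 cells, and *Tnik* in 42.8% of XN1 and 38.1% of KN1 cells. Likewise *Btrc* was captured in 42.7% of XN4 and 16.8% of KN1 cells, and *Amer1* in 13.9% and 6.44%.

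For the 3 members with the widest ranges, the genes with the most similar profile over the 4 lines were sought among 8236 genes with a mean of at least 20 rpm, by the Euclidean distance of centred log2 levels. Nearest to *Lef1* were *Apobec1*, an RNA-editing deaminase, at a distance of 0.65, *Pcyt1b*, an enzyme of phosphatidylcholine synthesis, at 0.67, and *Rflnb*, a filamin-binding protein, at 0.85. Nearest to *Tcf7* were the neuronal pentraxin *Nptx1* at 0.26, the signal peptidase subunit *Sec11c* at 0.38 and again *Rflnb* at 0.49. *Rflnb* was at 117 rpm in XN1 and 11.2 to 28.8 rpm elsewhere, and *Nptx1* at 307 rpm in XN1 and 18.4 to 68.9 rpm elsewhere. Among the nearest to *Ctnnb1* were the ubiquilin *Ubqln2* at 0.06 and the RNA-binding protein *Pcbp1* at 0.13, and *Ubqln2* was at 298 rpm in CN4, 222 rpm in XN1, 219 rpm in XN4 and 59.2 rpm in KN1. With 4 points per gene, a short distance is a description of these libraries.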

How the data were processed

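The EpiSC-derived NSC lines XN4, XN1, KN1 and CN4 were measured as 1 BD Rhapsody library each, and samples were assigned to lines by their labels. The authors deposited counts of reads per gene and cell of XN4, XN1 and CN4, made with the BD Rhapsody WTA pipeline 1.12.1 on GRCm38 with GENCODE M19, with intronic reads counted. Fewer cells of every line were deposited as natural log values, the ln of 1 plus reads per 10000, with Seurat 4.3.0 named in the labels, from tables without mitochondrial and ribosomal protein genes. Reads were recovered from the natural log values by dividing by the smallest step of each cell, and 100% came out whole within 0.01. The pipeline settings of KN1 and the strand setting are not given in the sources used here. Genes that overlap on the other strand may share reads.

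Levels are pooled reads per 1000000 reads (rpm) of the normalized tables. Ratios carry exact conditional binomial 95% intervals and shares exact Clopper-Pearson 95% intervals. A ratio of at least 2 was called. With 1 library per line no p-value was computed. Shares were also computed as the exact expectation after thinning to 3000 reads, and counts in dividing cells and in pairs were compared within 20 strata of total reads. Doublets were not called. The 10 members and the lists were chosen with earlier results of these data known. Named genes are the members, the 6 genes of each pathway list with the largest range, and the 3 nearest genes to each of the 3 members with the largest range. Results of certain named genes are not reported here. GENCODE M21 on GRCm38 gave positions and spans, and RefSeq on GRCm38.p6 the windows at start sites. Functions were tested on simulated data. Python 3.11.15, numpy 2.4.6 and scipy 1.17.1 were used. Alternatives were a mean over cells, median scaling, leaving out deep or dividing cells, shares in place of levels, a minimum of 20 rpm and the tables of all reads. Comparing with genes of like span, and the cells outside the normalized tables, were added after seeing the data.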

Additional observations from a re-analysis of the deposited data

How the results depend on the processing

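No paired analysis was possible because each line is 1 library, and the number in a line's name, which marks its derivation experiment, is shared by XN1 and KN1 and by XN4 and CN4 only, so that no 2 conditions share more than 1 experiment. Of 20 log2 ratios of at least 1 in either direction, 161 of 170 alternative values kept their direction. The 170 include values that could not turn: those with a minimum of 20 rpm, which equal the reported ones, and those by median scaling. The share that kept its direction is therefore too high as a measure of stability. The 9 values that changed direction were all against KN1. By shares of cells the log2 ratios were 0.12 for *Apc* and 0.42 for *Tcf7* in XN4, 0.46 for *Tcf7l2* in XN1, and 0.36 for *Tcf7l1* and 0.66 for *Tcf7l2* in CN4. By thinned shares *Tcf7l2* was 0.24 in XN1 and 0.19 in CN4, and relative to genes of like span 0.59 and 0.42. The cause was not tested.

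By shares of cells the number of members at least 2-fold apart was 5 for XN4 and 7 for CN4 against KN1 and 1 for XN4 against CN4, and by thinned shares 5 for CN4 against KN1. With members of at least 20 rpm, which leaves fewer genes, it was 3 for XN1 against KN1, 2 for XN4 against XN1 and 0 for XN1 against CN4. Without dividing cells, and in the tables of all reads, it was 5 for XN4 against CN4. The totals of all reads include mitochondrial reads, 22.6% in XN4 and 15.1% in CN4, so that count also rests on another scaling. The combinations of member and line captured in at least 50% of cells numbered 13 with 1 read and 8 with 2 reads, and after thinning 9 at 3000 and 5 at 2000 reads. Of 65 alternative counts, 54 were within 1.5 times the count reported, but a like count can hold other members: by thinned shares 3 members were higher and 0 lower in XN4 than in KN1 (1 and 2 by reads), and 6 and 0 in XN1 (3 and 2 by reads). The median log2 ratio of genes of at least 20 rpm was 0.10 for XN4 and 0.15 for CN4 over KN1 and -0.11 for XN1 over CN4. Dividing by medians of this size could not turn the direction of a called ratio, so it does not test that direction. Depth limits the reading of *Lef1* outside XN1, which rests on 34 to 40 reads per line in the normalized tables, and on 72 in XN4 and 248 in CN4 in the tables of all reads.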
